A study of Mus musculus with 9 samples.

Results

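The gene set described here is a module of 44 cell cycle and DNA replication genes, out of 36256 genes in a table of RNA abundance from mouse colon. The members were listed by name, with earlier results of these data known. All 44 were found in the table and all 44 passed the filter on low counts, so every member was tested. Polyadenylated RNA was sequenced from colon tissue of 9 C57BL/6 mice, 3 in each of 3 groups. NC mice were the controls. MC mice received dextran sulfate sodium (DSS), a sulfated polysaccharide that damages the colon lining and is widely used to model colitis, over a 9 day modelling period. LRWE mice received DSS and 2.0 g/kg of an extract of Linderae Radix (the Lindera aggregata root). MC and LRWE therefore share DSS, and no group received the extract alone. The age and sex of the mice and the colon segment are not given in the sources used here. Each library came from 1 mouse. Whole tissue was used, so fewer dividing cells and less RNA per dividing cell cannot be told apart.

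A dividing cell passes through a gap phase (G1), DNA synthesis (S), a further gap (G2) and mitosis (M). Cyclins bind and activate cyclin-dependent kinases (CDKs), which drive each transition, and CDK inhibitors hold these kinases in check. In late M and G1 the MCM helicase is loaded onto replication origins, a step called licensing, and it is activated in S phase. Many S phase genes are transcribed under E2F factors, while many genes of G2 and mitosis are repressed in resting cells through a promoter element called the cell cycle genes homology region (CHR), often with CCAAT boxes. In the colon, dividing cells lie mainly in the lower crypt, where stem and progenitor cells renew the epithelium, and immune and stromal cells can add cycling cells after injury.

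The promoters of the members were compared first for these elements, since promoter letters do not depend on the RNA levels. RefSeq promoters of build GRCm38.p6, from 250 bases before to 50 bases after the transcription start, matched 35 of the 44 members, and Mcm4, Ccnd1, Ccnd2, Ccne2, Ccna2, Aurkb, Kif20a, Tpx2 and Foxm1 had no entry. Exact letters were searched on both strands: CCAAT for the CCAAT box, TTTGAA or TTCGAA for the CHR, and TTTCCCGC, TTTGGCGC, TTTCGCGC or TTTGCCGC for E2F. Matches of different elements may overlap, and a match is a string of letters, not a measured binding site. Shares are of genes, and a gene with more than 1 listed promoter, such as Mcm7, counted if any of them held the element. Each of the 4 sequences below is 1 promoter written 5′ to 3′ on the strand of its gene, with every match in capitals. They are shown because Mki67 and Plk1 carry the CHR and CCAAT letters typical of the mitotic members, Mcm6 carries the E2F letters of the licensing members, and Pcna, the only member with an unadjusted p under 0.05 between LRWE and MC, carries neither CHR nor E2F letters. They lie at chr7:135716330-135716629 (Mki67, minus strand), chr7:122159185-122159484 (Plk1, plus strand), chr1:128359656-128359955 (Mcm6, minus strand) and chr2:132253131-132253430 (Pcna, minus strand).
Mki67: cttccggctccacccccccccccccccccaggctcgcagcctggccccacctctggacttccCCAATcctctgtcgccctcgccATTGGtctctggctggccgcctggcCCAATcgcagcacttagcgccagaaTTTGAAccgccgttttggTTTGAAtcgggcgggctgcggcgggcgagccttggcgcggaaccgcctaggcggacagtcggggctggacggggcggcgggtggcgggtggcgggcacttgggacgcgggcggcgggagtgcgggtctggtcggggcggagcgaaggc
Plk1: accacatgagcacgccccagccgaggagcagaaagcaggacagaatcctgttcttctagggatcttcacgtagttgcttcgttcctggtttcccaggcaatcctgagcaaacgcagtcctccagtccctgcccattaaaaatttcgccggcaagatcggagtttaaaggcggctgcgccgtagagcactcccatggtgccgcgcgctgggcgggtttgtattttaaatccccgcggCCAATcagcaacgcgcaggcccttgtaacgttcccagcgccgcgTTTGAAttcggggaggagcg
Mcm6: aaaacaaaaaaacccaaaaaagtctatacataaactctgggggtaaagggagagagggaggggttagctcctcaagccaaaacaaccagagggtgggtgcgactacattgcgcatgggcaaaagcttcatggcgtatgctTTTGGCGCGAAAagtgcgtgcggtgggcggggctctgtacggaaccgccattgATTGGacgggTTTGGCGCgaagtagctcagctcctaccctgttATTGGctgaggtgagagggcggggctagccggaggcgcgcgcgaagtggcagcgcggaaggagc
Pcna: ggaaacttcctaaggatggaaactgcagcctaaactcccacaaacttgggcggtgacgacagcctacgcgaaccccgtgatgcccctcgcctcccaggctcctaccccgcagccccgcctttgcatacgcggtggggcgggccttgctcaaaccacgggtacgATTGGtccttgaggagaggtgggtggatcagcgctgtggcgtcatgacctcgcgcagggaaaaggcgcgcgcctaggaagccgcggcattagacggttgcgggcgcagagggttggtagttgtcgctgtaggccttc

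Mki67 held 2 CHR and 3 CCAAT matches, Plk1 held 1 of each, Mcm6 held 3 E2F and 2 CCAAT matches, and Pcna held 1 CCAAT match. The upstream pair of E2F matches in Mcm6 overlapped each other and stood on opposite strands. Among the 35 members with a promoter, 26 (74.3%) had a CCAAT box, 16 (45.7%) a CHR and 8 (22.9%) an E2F match. Over all 27025 genes with a promoter these shares were 41.1%, 21.7% and 2.6%. Related genes outside the module, in 4 lists described below, also held these elements. The CCAAT share ran from 52.2% (other S phase genes) to 69.2% (p53 targets). The CHR share ran from 23.1% (p53 targets) to 72.7% (other mitosis genes), and the E2F share from 0% (p53 targets) to 43.8% (other cell cycle regulators). Of 7 licensing genes, 6 (85.7%) had an E2F match and 2 (28.6%) a CHR, whereas of 18 genes in the proliferation mark and 3 mitotic groups, 14 (77.8%) had a CHR and 1 (5.56%), Cdk1, an E2F match. The 4 DNA synthesis genes held 0 E2F and 0 CHR matches, and of 3 genes of the G1 and S group 1 had an E2F match and 0 a CHR. CCAAT boxes were in 71.4% of the licensing, 75.0% of the DNA synthesis and 88.9% of the mark and mitotic genes. These shares are descriptions, and differences between roles were not tested. Tyms, Ccne1, Cdk4, Birc5, Nusap1, E2f1 and Cdkn1a held none of the 3 elements within these 300 bases.

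**Figure D1:**
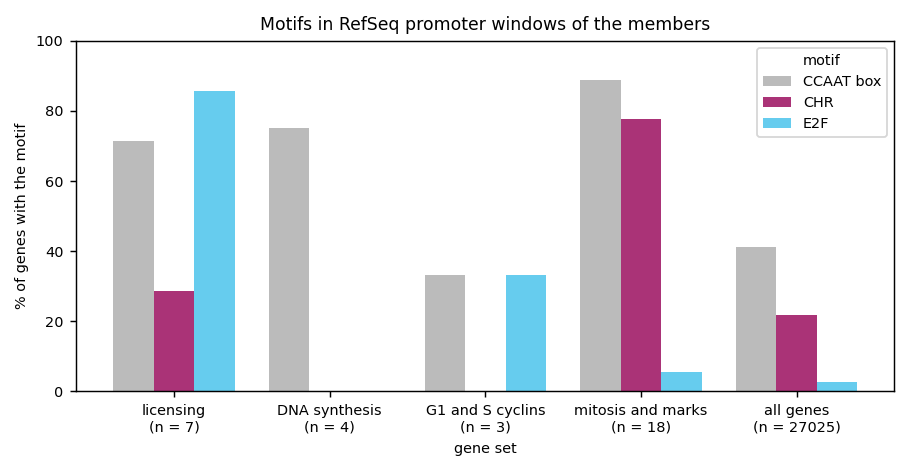
Share of genes (percent) with a CCAAT box, a CHR or an E2F match in any listed promoter. It is given for members of the licensing, DNA synthesis, G1 and S, and mitosis and mark groups and for all genes with a RefSeq promoter. Among the member groups shown, E2F letters are found mainly in the licensing genes (85.7%, against 2.6% of all genes). CHR letters are found mainly in the groups of mitosis and proliferation marks (77.8%, against 21.7%).

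Library totals ran from 59042063 to 65042857 counts, and 21218 to 26019 genes had a count per library. Levels of 1 gene are given as CPM, counts scaled to library size, after TMM scaling, and levels are compared between genes as FPKM, which also divides by transcript length. LRWE 2 stood apart from the other libraries: it had the fewest genes with a count and lay farthest out on principal component 1, which held 36.6% of the variance. MC 3 differed from the other MC mice in the members themselves. Of the 42 members without the CDK inhibitors, MC 3 was the highest of the 3 MC libraries in 30, and MC 2 was the lowest in 21. MC 3 was thus singled out by the members, so lower MC values without it follow from that choice. By limma-voom quality weight MC 2 was the lowest MC library, at 0.385 against 1.39 for MC 1 and 1.18 for MC 3. The share of counts from mitochondrial genes was 17.5%, 12.2% and 18.9% in NC, 14.96%, 10.2% and 18.3% for MC and 11.43%, 11.37% and 14.2% for LRWE. Within each group the libraries ranked alike by this share and by the mean log2 CPM of the 42 members, and the part of this share in the levels of the members was not tested. Across these 42 members the median SD of log2 CPM within a group came to 0.277 for NC, 0.487 for MC and 0.322 for LRWE, against 0.253, 0.379 and 0.474 over all 21767 genes tested.

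Mean FPKM over the 9 libraries ran from 0.226 for Ttk to 49.3 for Cdkn1a, with a median of 1.27 over the 44 members. After Cdkn1a came Cdkn1b at 22.9 FPKM, Pcna at 21.2 and Cdk4 at 17.9. The lower end held 16 members that were under 1 FPKM. Ttk, a spindle checkpoint kinase, was the only member with a library at 0 counts, LRWE 2. For 16 members the table places another gene over part of the same locus, Mcm7 with Cops6, Ap4m1 and the Mir106b cluster among them. The sources used here do not say whether counting used strand, so reads of such neighbours may be included. Pcna, Tyms, Ccnb1 and Ccnb2 also have named pseudogenes in the table.

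DSS against control showed no member past the threshold, and most members had lower mean levels in MC. By edgeR's quasi-likelihood test at an adjusted p under 0.05, 0 of 44 members were called, against 6.37% of all genes tested (1386 of 21767). At an unadjusted p under 0.05 there were 10 members, all lower in MC, against 12.2% of all genes lower and 12.0% higher. Of the 44 log2 fold changes, 35 were negative and 9 positive. Their median was -0.42, against -0.005 over all genes tested, and they ran from -1.17 for Aurkb to 0.77 for Birc5. The median was -0.68 without MC 3, -0.25 without MC 2 and -0.27 without NC 3. All 3 MC libraries were below all 3 NC libraries in 15 members, against 20.1% of all genes, and above them in 2 members (Ccne1 and Ccne2), against 19.5%. DESeq2 called 5 members (Mcm6, Mcm7, Cdt1, Tyms and Cdk4), all lower in MC, against 17.2% of all genes. limma-voom with library quality weights called these 5 lower and Birc5 higher, against 23.9% of all genes.

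DSS with the extract against DSS alone also showed no member past the threshold. edgeR called 0 of 44 members and 0% of all genes. At an unadjusted p under 0.05 there was 1 member, Pcna, higher in LRWE, against 12.8% of all genes higher (5139 genes in both directions) and 10.8% lower. DESeq2 called Pcna alone among the members, against 10.0% of all genes, and limma-voom with quality weights also called Pcna alone, against 13.3%. The log2 fold changes were positive in 26 members and negative in 18, with a median of 0.05 against -0.03 over all genes. This balance turned with the processing. Scaling by library totals alone left 16 positive and 28 negative, with a median of -0.14 against -0.24 over all genes, and the fit without the filter on low counts left 21 and 23. Without MC 2 there were 20 positive and 24 negative, without MC 1 or NC 2 there were 21 and 23, and without MC 3 there were 34 and 10, with a median of 0.28. All 3 LRWE libraries were above all 3 MC libraries in 6 members, Mcm7, Cdc6, Pcna, Cdk4, Aurka and Cdkn1a, against 14.3% of all genes. They were below in 0 members, against 14.1% of all genes.

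DSS with the extract against control gave 0 of 44 members called by edgeR, against 10.0% of all genes tested (2179 of 21767). At an unadjusted p under 0.05 there were 2 members higher in LRWE, Cdc6 and Ccnd1, against 13.6% of all genes, and 8 lower, against 13.3%. The median log2 fold change was -0.33, against -0.05 over all genes, with 32 values negative and 12 positive. With 1 library left out it ran from -0.54, without NC 2, to -0.26, without NC 3. LRWE did not overlap NC in 15 members that were lower, against 20.5% of all genes, and in 3 that were higher, Cdc6, Ccnd1 and Cdkn1a, against 16.6%. DESeq2 called 7 members, Cdc6 and Ccnd1 higher and Mki67, Cdt1, Tyms, Cdc20 and Nusap1 lower, against 20.3% of all genes. limma-voom with quality weights called 9, Cdc6, Pcna and Ccnd1 higher and Cdt1, Tyms, Ccnb1, Bub1b, Cdc20 and Nusap1 lower, against 28.2%. The MC libraries enter 2 of the 3 comparisons, and so do those of NC and of LRWE, so the 3 sets of values are not independent.

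**Figure D2:**
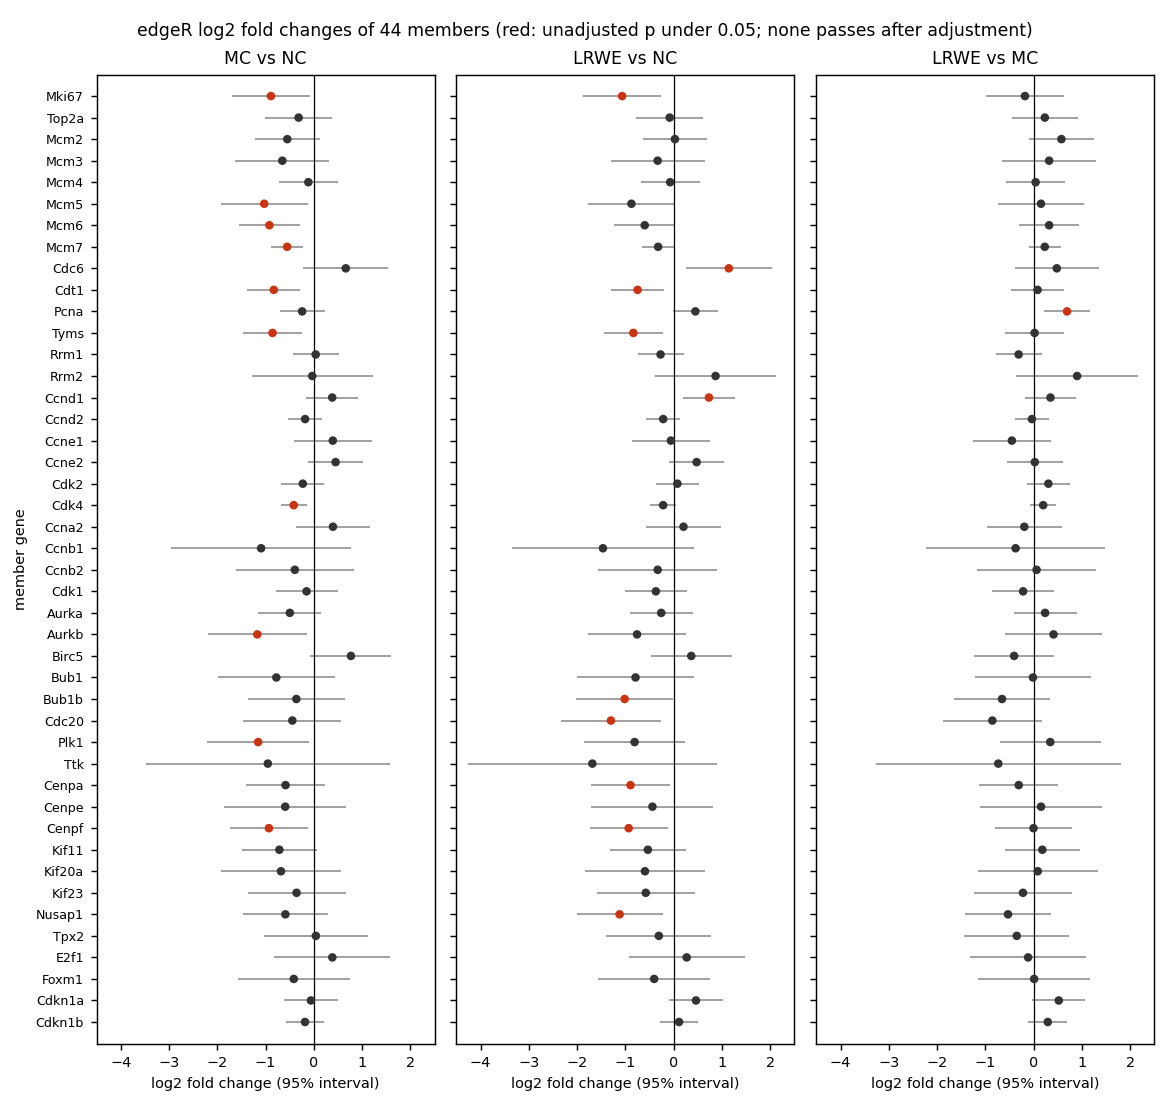
Log2 fold change of each of the 44 members with its 95% interval in each comparison, by edgeR over 9 libraries, ordered by role, with members at an unadjusted p under 0.05 in red. Most values for MC against NC lie below 0 (35 of 44), those for LRWE against MC lie on both sides (26 above, 18 below), and no member passed an adjusted p of 0.05.

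Mki67 and Top2a are the proliferation marks of the module. Mki67 encodes Ki-67, a chromosome surfactant used as a histological mark of cycling cells (ENSMUSG00000031004). Its level was 51.9, 32.8 and 60.8 CPM in NC, 25.97, 13.6 and 39.1 CPM in MC, and 22.1, 22.9 and 24.3 CPM in LRWE. All LRWE libraries were below all NC libraries, while MC 3 lay above NC 2, so MC and NC overlapped. For MC against NC the log2 fold change was -0.89 ± 0.36 (SE, n = 3 mice per group), with an edgeR adjusted p of 0.168. LRWE against NC gave -1.07 ± 0.36 and an adjusted p of 0.0921. Between LRWE and MC it was -0.18 ± 0.35, with a 95% interval from -0.98 to 0.62. Top2a, the DNA topoisomerase that untangles chromosomes before mitosis, ran from 8.49 to 14.1 CPM in NC, from 7.47 to 13.4 in MC and from 9.05 to 13.0 in LRWE, and all 3 groups overlapped.

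The replication licensing genes had lower MC means in 7 of 8 cases. At an unadjusted p under 0.05 by edgeR, 4 of the 8 were lower in MC, against 12.2% of all genes. Mcm2 to Mcm7 encode the subunits of the MCM helicase, and Cdc6 and Cdt1 encode the factors that load it. Mcm7, the most abundant by FPKM (ENSMUSG00000029730), stood at 26.4, 26.4 and 30.8 CPM in NC, at 17.2, 20.4 and 19.4 in MC and at 21.3, 21.5 and 23.9 in LRWE. The 3 groups did not overlap, with NC highest, LRWE between and MC lowest. For MC against NC its log2 fold change was -0.55 ± 0.15 with an adjusted p of 0.0556, the smallest among the members in that comparison. LRWE against MC gave 0.23 ± 0.14 and an adjusted p of 0.354, and LRWE against NC gave -0.32 ± 0.14 and 0.189.

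Cdt1 was at 11.2, 9.01 and 9.32 CPM in NC, at 5.44, 5.40 and 5.80 in MC and at 4.51, 7.09 and 5.99 in LRWE. Both DSS groups lay wholly below NC and overlapped each other. MC against NC had a log2 fold change of -0.83 ± 0.24 (edgeR adjusted p 0.0759), and LRWE against NC had one of -0.75 ± 0.24 (0.0841). Mcm6, whose promoter with E2F letters is printed above, was at 17.2, 14.6 and 15.04 CPM in NC, at 5.82, 10.7 and 8.19 in MC and at 7.69, 10.3 and 12.9 in LRWE. MC against NC gave a log2 fold change of -0.92 ± 0.28 (edgeR adjusted p 0.0830). Mcm5 was at 9.03, 3.91 and 10.1 CPM in NC and 2.78, 4.48 and 4.04 in MC, so NC 2 lay among the MC libraries. MC against NC gave a log2 fold change of -1.03 ± 0.40 (edgeR adjusted p 0.154).

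Cdc6, the other loading factor, was at 1.71, 0.9996 and 1.06 CPM in NC, at 1.48, 1.87 and 2.62 in MC and at 2.77, 2.73 and 2.81 in LRWE. All LRWE libraries were above every MC and NC library, and LRWE against NC gave a log2 fold change of 1.14 ± 0.39 (edgeR adjusted p 0.0985). Mcm2 lay lower in MC than in NC without overlap, at 3.87 to 6.68 against 6.96 to 7.92 CPM, and ran from 5.38 to 9.25 CPM in LRWE. Mcm3 ran from 6.40 to 12.2 CPM in NC and 3.09 to 9.76 in MC, and Mcm4 from 9.86 to 12.6 and 8.19 to 14.6, with overlap in both. For LRWE against MC all 8 licensing values were positive, with a median of 0.27, but 5 of 8 were positive when libraries were scaled by their totals alone and 6 of 8 without LRWE 2.

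The DNA synthesis genes did not share 1 pattern. Pcna, the sliding clamp that holds DNA polymerase on its template (ENSMUSG00000027342), was at 55.3, 50.8 and 48.8 CPM in NC, at 40.1, 43.1 and 47.8 in MC and at 48.1, 86.3 and 76.9 in LRWE. LRWE 2 and LRWE 3 stood above every other library, and LRWE 1 lay just above MC 3. For LRWE against MC the log2 fold change was 0.69 ± 0.21, with an edgeR p of 0.00869 and an adjusted p of 0.164. No gene had a smaller adjusted p in that comparison. Genes outside the module tied at this value, Cdc25a among them, so it does not rank Pcna first. MC against NC gave -0.24 ± 0.21 with an adjusted p of 0.527. LRWE against NC gave 0.45 ± 0.21 with an adjusted p of 0.202.

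Tyms, thymidylate synthase, which makes the thymidine nucleotide for DNA, was at 14.9, 10.5 and 14.04 CPM in NC, at 5.12, 7.07 and 9.60 in MC and at 8.15, 7.04 and 6.89 in LRWE. Both DSS groups were wholly below NC. Against NC the log2 fold change was -0.86 ± 0.27 in MC (edgeR adjusted p 0.0958) and -0.84 ± 0.27 in LRWE (0.0863). Rrm1 and Rrm2 are the large and small subunits of ribonucleotide reductase, which supplies deoxynucleotides. Rrm1 ran from 17.1 to 19.9 CPM in NC, from 16.3 to 24.1 in MC and from 13.1 to 18.1 in LRWE. Rrm2 was at 2.23, 1.65 and 4.70 CPM in NC, at 1.69, 2.19 and 4.50 in MC and at 2.77, 7.09 and 5.77 in LRWE, and its groups overlapped in every comparison.

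The G1 and S cyclins and kinases were split, with 3 of 6 values positive for MC against NC. Cdk4, the kinase that D cyclins activate in G1 (ENSMUSG00000006728), was at 77.3, 70.1 and 68.0 CPM in NC, at 53.1, 51.3 and 57.0 in MC and at 57.9, 65.5 and 61.5 in LRWE. As with Mcm7, the 3 groups did not overlap and LRWE lay between the other two. For MC against NC this was a log2 fold change of -0.42 ± 0.12, with an edgeR adjusted p of 0.0723. LRWE against MC gave 0.20 ± 0.12 (adjusted p 0.338), and LRWE against NC gave -0.22 ± 0.12 (0.280). Tspan31 overlaps the Cdk4 locus on the other strand.

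Ccnd1, cyclin D1, was at 32.1, 20.8 and 25.3 CPM in NC, at 30.7, 25.5 and 45.4 in MC and at 46.3, 43.3 and 39.9 in LRWE. Every LRWE library was above every NC library, and MC 3 lay with the LRWE libraries. LRWE against NC gave a log2 fold change of 0.73 ± 0.24 with an edgeR adjusted p of 0.0851. Ccnd2, cyclin D2, ran from 59.8 to 75.4 CPM in NC, from 52.8 to 68.5 in MC and from 53.3 to 61.6 in LRWE. The E cyclins, which activate CDK2 at the start of S phase, were higher in MC than in NC without overlap. Ccne1 ran from 1.91 to 2.70 CPM in NC, from 2.72 to 3.33 in MC and from 1.52 to 2.83 in LRWE. Ccne2 ran from 4.32 to 5.32, 6.24 to 6.75 and 4.86 to 7.44 CPM in the same order. Neither reached an unadjusted p of 0.05. Cdk2 itself ran from 14.8 to 19.2 CPM in NC, from 13.5 to 14.5 in MC and from 14.4 to 21.0 in LRWE.

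**Figure D3:**
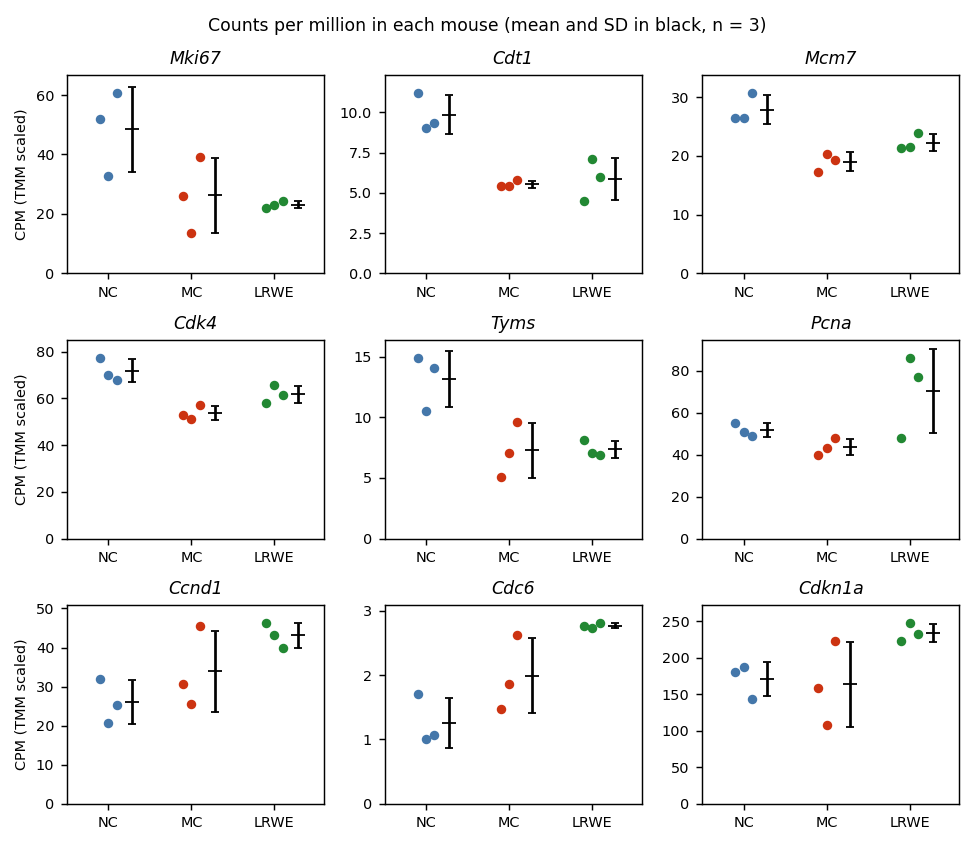
CPM of 9 members in each mouse (points), with the mean and SD of each group (n = 3) in black, every axis starting at 0. The members were picked for display with their values known. Mcm7 and Cdk4 separate all 3 groups, Cdt1 and Tyms separate NC from both DSS groups, and Pcna is highest in LRWE 2 (86.3) and LRWE 3 (76.9).

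The mitotic cyclins and their kinase overlapped between groups in most cases. Ccna2, cyclin A2, which acts in S phase and G2 (ENSMUSG00000027715), was at 14.6, 9.84 and 11.8 CPM in NC, at 14.9, 8.63 and 24.1 in MC and at 12.3, 14.4 and 14.96 in LRWE. MC held both the lowest and the highest of the 9 libraries. MC against NC had a log2 fold change of 0.40 ± 0.34 (edgeR adjusted p 0.535). With 1 library left out it ran from -0.04, without MC 3, to 0.70. Between LRWE and MC it was -0.19 ± 0.34 with a 95% interval from -0.97 to 0.58. LRWE against NC gave 0.20 ± 0.34 with an adjusted p of 0.761. Ccnb1, cyclin B1, the partner of CDK1 at entry into mitosis, was at 4.77, 3.63 and 3.86 CPM in NC, at 1.78, 1.31 and 2.66 in MC and at 3.22, 0.148 and 1.06 in LRWE. Both DSS groups were below NC throughout, and LRWE held both a library above every MC library and 2 below. Ccnb2 ran from 5.24 to 6.54 CPM in NC, from 1.14 to 6.33 in MC and from 3.996 to 5.99 in LRWE. Cdk1, the main mitotic CDK, ran from 5.17 to 6.55, 4.06 to 7.16 and 4.24 to 4.88 CPM.

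The mitotic kinase and checkpoint genes had a median log2 fold change of -0.64 for MC against NC and -0.80 for LRWE against NC, with 7 of 8 values negative in each and none called. Without MC 3, which was singled out by its high member levels, the median for MC against NC was -1.06. Plk1, polo-like kinase 1, which drives centrosome maturation and mitotic entry (ENSMUSG00000030867), was at 18.9, 20.7 and 33.9 CPM in NC, at 14.5, 5.00 and 13.5 in MC and at 12.5, 8.26 and 21.1 in LRWE. All MC libraries were below all NC libraries, and LRWE 3 reached the NC range. Against NC the log2 fold change was -1.15 ± 0.47 in MC (edgeR adjusted p 0.171) and -0.81 ± 0.46 in LRWE (0.305), and between LRWE and MC it was 0.34 ± 0.46 (0.681).

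Aurkb, the catalytic kinase of the chromosomal passenger complex, which corrects faulty chromosome attachments, was at 4.46, 2.46 and 4.24 CPM in NC, at 1.57, 0.960 and 2.43 in MC and at 2.15, 1.61 and 2.83 in LRWE. Its log2 fold change of -1.17 ± 0.45 for MC against NC (edgeR adjusted p 0.154) was the most negative of the 44. Birc5, survivin, belongs to the same complex and had the most positive value of the 44. Birc5 was at 7.61, 4.52 and 8.98 CPM in NC, at 12.96, 6.499 and 16.5 in MC and at 10.04, 8.57 and 8.53 in LRWE, with MC 2 inside the NC range. Its log2 fold change for MC against NC was 0.77 ± 0.37 (edgeR adjusted p 0.244).

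Cdc20, the activator that turns the anaphase-promoting complex on, was at 5.92, 6.41 and 8.43 CPM in NC, at 3.67, 3.51 and 8.07 in MC and at 4.12, 1.57 and 2.73 in LRWE. LRWE was wholly below NC, with a log2 fold change of -1.30 ± 0.46 and an edgeR adjusted p of 0.104. Bub1b, the checkpoint protein that restrains CDC20, was at 5.07, 5.81 and 6.71 CPM in NC, at 3.47, 3.84 and 6.38 in MC and at 4.86, 2.16 and 1.66 in LRWE. LRWE against NC gave -1.02 ± 0.45 (edgeR adjusted p 0.182). Bub1, a checkpoint kinase at the kinetochore, ran from 1.40 to 3.79 CPM in NC, from 0.682 to 2.16 in MC and from 1.27 to 1.68 in LRWE. Aurka, a centrosome kinase, ran from 3.49 to 5.49, 2.80 to 3.36 and 3.46 to 3.81 CPM. Ttk was at 2.52, 1.57 and 1.79 CPM in NC, at 0.446, 1.20 and 1.40 in MC and at 0.911, 0 and 0.910 in LRWE, so both DSS groups were below NC throughout.

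The centromere and spindle genes were below NC in 7 of 8 cases in MC and 8 of 8 in LRWE by log2 fold change, with medians of -0.59 in each and none called. Without MC 3, singled out in the same way, the MC median was -0.98. All 8 values for LRWE against NC stayed negative with the other scalings and without LRWE 2. Tpx2, which assembles spindle microtubules and activates Aurora A (ENSMUSG00000027469), was the most abundant. It was at 7.57, 4.41 and 6.84 CPM in NC, at 4.06, 3.54 and 11.8 in MC and at 5.43, 3.71 and 6.04 in LRWE. MC 3 was the highest of the 9 libraries and MC 2 the lowest. MC against NC gave a log2 fold change of 0.04 ± 0.48 (edgeR adjusted p 0.969). With 1 library left out it ran from -0.73, without MC 3, to 0.35. LRWE against MC gave -0.35 ± 0.48 and LRWE against NC -0.31 ± 0.48, with adjusted p values of 0.686 and 0.738.

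Nusap1, a microtubule-bundling protein of the spindle, was at 7.42, 6.34 and 7.57 CPM in NC, at 4.64, 2.69 and 6.84 in MC and at 4.33, 2.20 and 3.27 in LRWE. LRWE was wholly below NC, with a log2 fold change of -1.12 ± 0.39 and an edgeR adjusted p of 0.105. Cenpf, a kinetochore protein of G2 and mitosis, was at 10.4, 6.03 and 11.8 CPM in NC, at 3.67, 4.02 and 7.11 in MC and at 5.63, 4.10 and 5.04 in LRWE. Against NC the log2 fold change was -0.93 ± 0.36 in both MC and LRWE, with edgeR adjusted p values of 0.152 and 0.133. Cenpa, the histone H3 variant that marks centromeres, was at 8.16, 6.01 and 12.7 CPM in NC, at 4.62, 4.90 and 8.37 in MC and at 5.37, 5.28 and 3.79 in LRWE, with -0.90 ± 0.36 for LRWE against NC (edgeR adjusted p 0.152). The mitotic motor proteins had wide ranges in MC. Cenpe ran from 4.95 to 11.8 CPM in NC, from 1.67 to 7.92 in MC and from 3.98 to 7.78 in LRWE. Kif11 ran from 4.57 to 6.58, 2.13 to 4.82 and 3.53 to 4.29 CPM, Kif20a from 3.45 to 4.43, 1.06 to 3.32 and 1.09 to 4.02, and Kif23 from 4.11 to 7.92, 2.41 to 7.18 and 2.99 to 5.38.

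The transcription factors of the module were low and overlapped between all groups. Foxm1, a factor that activates genes of G2 and mitosis (ENSMUSG00000001517), was at 4.47, 1.85 and 4.63 CPM in NC, at 2.09, 1.82 and 4.30 in MC and at 3.07, 1.64 and 3.54 in LRWE. Against NC the log2 fold change was -0.42 ± 0.51 in MC and -0.41 ± 0.51 in LRWE, with edgeR adjusted p values of 0.679 and 0.668. LRWE against MC gave 0.01 ± 0.51 with an adjusted p of 0.995, and its sign turned under other scalings. E2f1, an activator of S phase genes, ran from 1.06 to 1.51 CPM in NC, from 0.998 to 2.46 in MC and from 0.720 to 2.05 in LRWE.

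The CDK inhibitors were the most abundant members per length, and both had positive values for LRWE against each other group, with none called. Cdkn1a, p21, an inhibitor induced by p53 and other stress signals (ENSMUSG00000023067), was at 180.5, 187.0 and 144.1 CPM in NC, at 159.3, 108.0 and 223.4 in MC and at 223.5, 247.7 and 232.4 in LRWE. All LRWE libraries were above all libraries of the other groups, though LRWE 1 and MC 3 differed by little. The log2 fold change was 0.52 ± 0.24 for LRWE against MC (edgeR adjusted p 0.231), 0.46 ± 0.24 for LRWE against NC (0.267) and -0.06 ± 0.24 for MC against NC (0.911). Cdkn1b, p27, an inhibitor tied to cell cycle exit, ran from 106.7 to 121.3 CPM in NC, from 94.0 to 105.5 in MC and from 92.5 to 150.0 in LRWE.

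**Figure D4:**
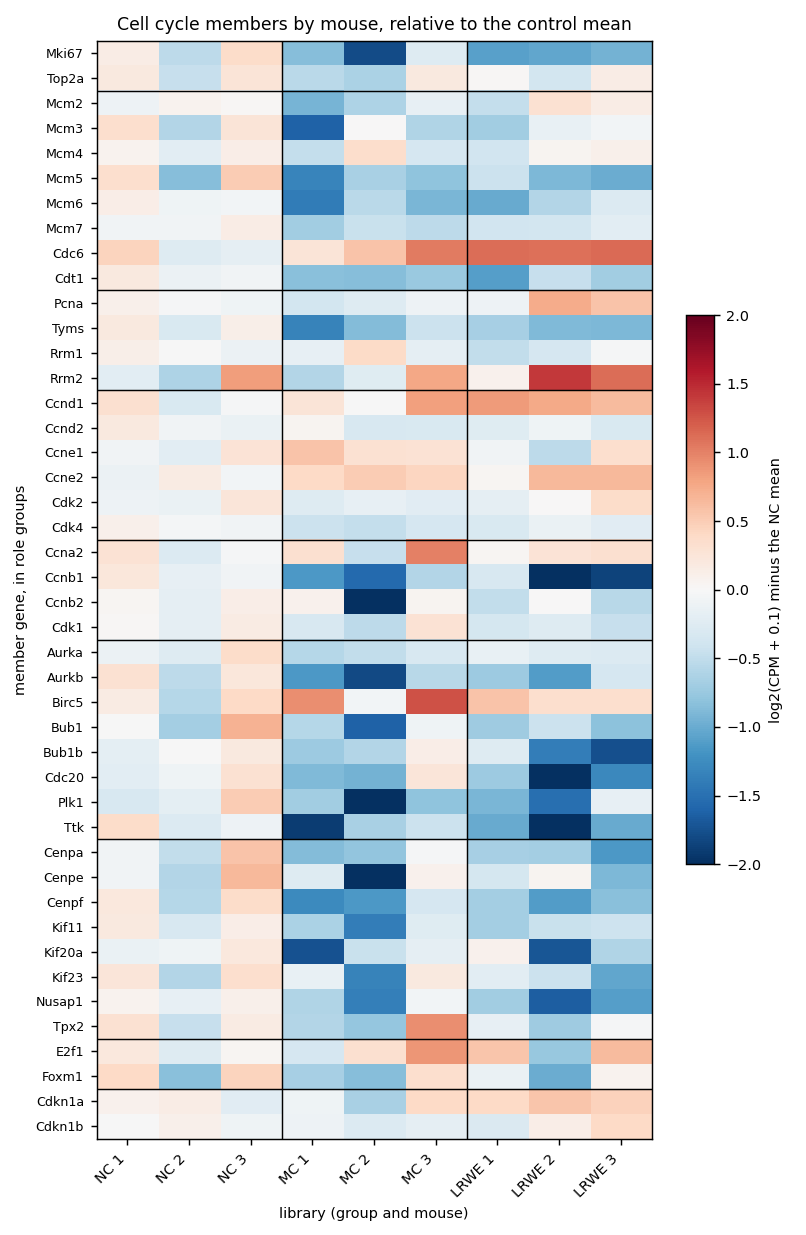
Heat map of log2(CPM + 0.1) minus the NC mean for the 44 members in each of the 9 libraries, rows ordered by role and the colour scale ending at 2 in either direction. The values given next are on another scale, log2 CPM with a prior count of 2. MC 1 and MC 2 are above the NC mean in only 8 and 7 of 42 members, MC 3 is close to NC with a mean of -0.01 over 42 members, and the LRWE libraries lie at -0.32, -0.63 and -0.31.

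Summed over the 42 members without the CDK inhibitors, the level was 606.8, 490.5 and 614.5 CPM in NC, at 425.9, 390.5 and 529.3 in MC and at 457.0, 505.9 and 513.9 in LRWE. MC 3 lay above NC 2, and LRWE 2 and LRWE 3 lay above NC 2 as well. The sum weights abundant genes, and 86.3 of the 505.9 CPM in LRWE 2 came from Pcna. The mean of log2 CPM, which weights members equally, minus its NC mean was -0.58, -0.70 and -0.01 in MC, -0.32, -0.63 and -0.31 in LRWE, and 0.10, -0.30 and 0.20 in NC.

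Other genes of the pathway were counted in lists that hold no member. Of 29 other S phase genes, 1 was called lower in MC than in NC and none higher, against 6.37% of all genes called in either direction. It was Prim1, the catalytic subunit of primase, at 9.87, 5.91 and 10.4 CPM in NC and 3.38, 3.55 and 4.25 in MC (log2 fold change -1.22 ± 0.31, edgeR adjusted p 0.0495). Prim1 was called in 6 of 21 alternatives. For LRWE against NC, 2 were called lower and 1 higher, against 10.0% of all genes in either direction. Prim1 was at 3.43, 2.79 and 4.16 CPM in LRWE (-1.33 ± 0.31, edgeR adjusted p 0.0303). Pold1, the catalytic subunit of DNA polymerase delta, fell from 15.4, 13.6 and 23.9 CPM in NC to 7.84, 6.72 and 9.10 in LRWE (-1.16 ± 0.27, edgeR adjusted p 0.0305). Cdc7, the kinase that fires licensed origins, rose from 3.22, 1.60 and 4.02 CPM to 6.88, 7.24 and 7.80 (1.31 ± 0.35, edgeR adjusted p 0.0481). The median log2 fold change of the 29 was -0.37 for MC against NC and -0.02 for LRWE against NC.

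Of 38 other mitosis genes, none was called for MC against NC (against 6.37% of all genes), where the median was -0.28. For LRWE against NC, where the median was -0.37, 2 were called lower (again against 10.0% of all genes). Smc4, a condensin subunit that compacts chromosomes, was at 51.8, 46.4 and 59.5 CPM in NC, at 45.3, 46.5 and 41.6 in MC and at 36.2, 30.7 and 35.3 in LRWE (-0.63 ± 0.14 for LRWE against NC, edgeR adjusted p 0.0270). Hmmr, a spindle-associated hyaluronan receptor, was at 1.92, 2.29 and 2.48 CPM in NC and 0.683, 0.591 and 0.260 in LRWE (-2.12 ± 0.53, edgeR adjusted p 0.0388).

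Of 22 other cell cycle regulators, 21 were tested and Cdkn2a was too low to test. For MC against NC 1 was called, against 6.37% of all genes, and for LRWE against NC 2 were called, against 10.0%. Cdc25a, a phosphatase that activates CDKs at the start of S phase, was at 20.4, 22.3 and 19.7 CPM in NC, at 32.0, 21.8 and 38.3 in MC and at 44.2, 71.5 and 60.1 in LRWE. Every LRWE library was above every other library. Cdc25a rose between NC and LRWE by a log2 fold change of 1.49 ± 0.24 (edgeR adjusted p 0.0088), a call that held in 21 of 21 alternatives. For LRWE against MC it gave 0.93 ± 0.24, with an adjusted p of 0.164. Cdkn1c, the CDK inhibitor p57, was at 8.98, 13.5 and 12.4 CPM in NC, at 34.9, 19.0 and 45.8 in MC and at 51.4, 39.8 and 29.4 in LRWE. Cdkn1c rose in MC (1.52 ± 0.34, edgeR adjusted p 0.0337) and in LRWE (1.79 ± 0.34, 0.0156) against NC, and no other regulator was called in the 3 comparisons.

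Of 16 other p53 target genes, listed because Cdkn1a is one, none was called for MC against NC, against 6.37% of all genes. For LRWE against NC 1 was called, against 10.0%. Pmaip1, Noxa, which promotes cell death, was at 76.3, 86.4 and 58.6 CPM in NC, at 24.6, 67.1 and 35.6 in MC and at 31.9, 27.6 and 24.0 in LRWE (-1.41 ± 0.34 for LRWE against NC, edgeR adjusted p 0.0343). Against NC the median over the list was 0.02 in MC and 0.04 in LRWE, and between LRWE and MC it was 0.17. In the comparison of LRWE with MC none of the genes in these 4 lists was called, and neither was any other gene tested. Of the 10 calls in these lists, that of Cdc25a alone held without each single library, with adjusted p values up to 0.0483. The other 9 were lost without any 1 of the NC libraries. In MC, the call of Cdkn1c was also lost without MC 1 or MC 3, and that of Prim1 held only without LRWE 2. In LRWE, the call of Cdc7 was lost without each of the 9 libraries and that of Cdkn1c without the NC libraries alone. The calls of Pold1, Hmmr, Smc4, Prim1 and Pmaip1 in LRWE were also lost without LRWE 2 or LRWE 3. Those of Pold1, Hmmr and Pmaip1 were lost without MC 3 as well, that of Hmmr without MC 1, and those of Pold1 and Prim1 without LRWE 1. Across all alternatives the highest edgeR, DESeq2 or limma adjusted p was 0.181 for Prim1 and 0.139 for Cdkn1c in MC. In LRWE it was 0.0733 for Cdkn1c and 0.109 to 0.135 for the other 6.

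Markers of cell types moved with the groups, and their part in the levels of the members was not tested. Epithelial and smooth muscle markers, which define whole colon, were abundant in every library. The sum of 8 epithelium markers was 6340 to 8309 CPM in NC, from 4234 to 8392 in MC and from 8619 to 13390 in LRWE. The sum of 8 crypt base and stem cell markers was 175.2 to 222.5 CPM in NC, from 113.1 to 275.0 in MC and from 92.7 to 119.1 in LRWE. For MC against NC, 5 of these 8 had negative values, and Ascl2 and Sox9 were called lower. Lgr5 was at 7.52, 8.44 and 10.3 CPM in NC and at most 1.24 CPM in any library of the DSS groups, and Lgr5 and Ascl2 were at 0 in LRWE 2. The sum of 6 smooth muscle markers was 8527 to 12610 CPM in NC, from 6557 to 11800 in MC and from 2492 to 6685 in LRWE, and that of 5 fibroblast markers 981.9 to 1473, 497.1 to 1464 and 180.9 to 549.0. Plasma cell markers (4 genes) summed to 933.3 to 2292 CPM in NC, from 156.2 to 338.7 in MC and from 222.2 to 361.6 in LRWE, and Jchain and Igha were called lower in both DSS groups against NC. Neutrophil markers (4 genes) summed to at most 0.143 CPM in NC, from 1.06 to 15.6 in MC and from 0.260 to 8.74 in LRWE, with none called. B cells, which divide in germinal centres, varied by mouse. The 5 B cell markers summed to 214.2 CPM in NC 3, 18.7 and 21.0 in the other NC libraries, 81.6 in MC 2, 2.30 and 5.88 in the other MC libraries, and at most 3.03 in LRWE, and all 5 were at 0 in at least 1 library. The 6 germinal centre markers summed to 23.2 to 35.0 CPM in NC, from 17.99 to 48.1 in MC and from 8.02 to 18.6 in LRWE. MC 2, the MC library with the highest sums of B cell, germinal centre and crypt base markers, had the lowest sum of the 42 members among the MC libraries. In NC it was the other way round: NC 3 had the highest of these 3 marker sums and the highest sum of the 42 members.

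**Figure D5:**
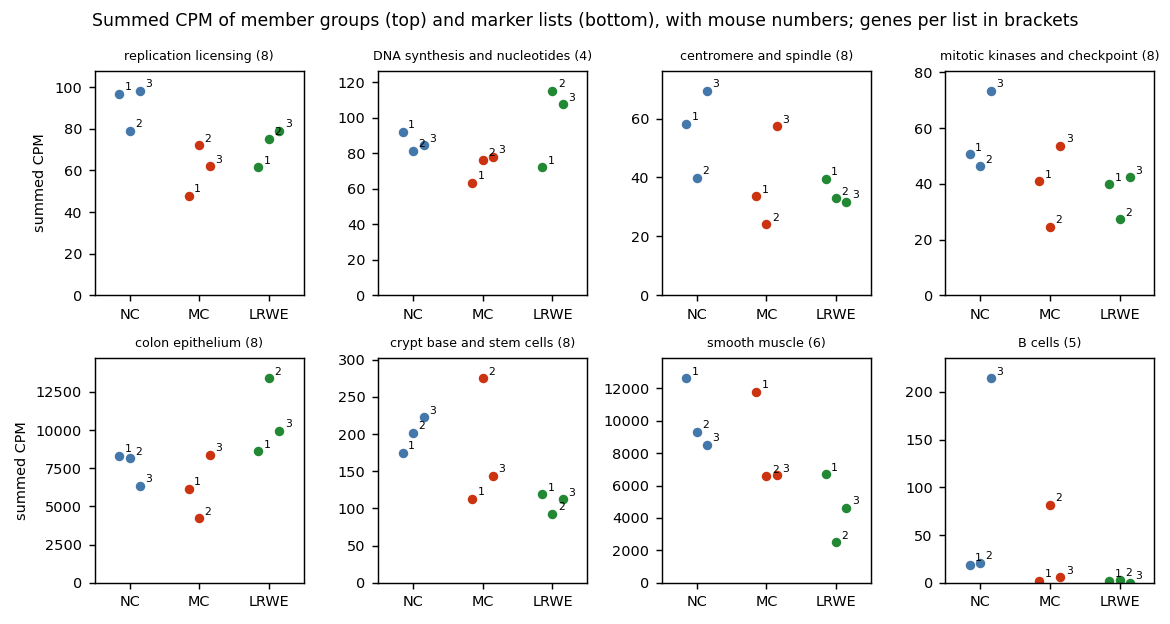
Summed CPM in each of the 9 libraries (points, with the number of the mouse) for 4 role groups of members in the top row and 4 lists of cell type markers in the bottom row, every axis starting at 0. The licensing sum is 47.9 to 72.0 in MC and 79.1 to 98.1 in NC, the epithelium markers are highest in LRWE (8619 to 13390), and the B cell markers stand out in NC 3 (214.2) and MC 2 (81.6).

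Set per 1000 CPM of epithelium markers, the sum of the 42 members was 73.0, 60.1 and 96.9 in NC, at 69.4, 92.2 and 63.1 in MC and at 53.02, 37.8 and 51.6 in LRWE. On that scale MC lay within the NC range and all LRWE libraries lay below both groups, whereas on the CPM scale LRWE lay between the MC and NC means. Set per 1000 CPM of crypt base and stem cell markers, the order was the other way round, with 3463, 2431 and 2762 in NC, 3766, 1420 and 3678 for MC and 3837, 5458 and 4584 for LRWE, so that all LRWE libraries lay above both groups. The ratios are descriptions with no test, and they move with their markers. Cdx2, 1 of the 8 epithelium markers, was itself called higher in both DSS groups against NC. The other 7 had negative values for MC against NC, and all 8 had positive values for LRWE against each other group. The mean of the crypt base sum was lowest in LRWE. By gene, 5 of the 8 crypt base markers had positive values for LRWE against MC and 3 negative, with a median of 0.37.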

How the data were processed

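Polyadenylated RNA from the colon of 9 mice was measured in 1 table of 36256 genes with mouse Ensembl identifiers. Per the file headers, 9 columns hold FPKM values and 9 hold counts. The counts were taken to be expected counts, whole numbers that the authors derived after assembly, though their derivation was not stated. The submitters' processing notes list HISAT2 2.0.4, StringTie 1.3.4d, edgeR and cutadapt 1.9, with no settings. These notes name a human build, so the build of the table is unknown and none of its coordinates are printed.

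Genes were kept by filterByExpr (21767 genes), scaled by TMM and fitted with edgeR 4.0.16 in R 4.3.3 by quasi-likelihood, with 1 mean per group over 9 libraries. Adjusted p-values are Benjamini-Hochberg over 21767 genes, and a call is an adjusted p under 0.05. SE was taken as the size of the log2 fold change over the root of the F statistic. CPM use TMM library sizes, and log2 CPM a prior count of 2. Totals of 59042063 to 65042857 counts set the counting error, and SEs also cover the spread between mice. The members had 0 to 14304 counts, with a median of 397.5. Alternatives used limma 3.58.1, DESeq2 1.42.0, other scalings and filters, each library left out, and log2(FPKM + 1). The fits without MC 3 and LRWE 2 together, and without mitochondrial genes, were added outside the plan. The procedure was tested on simulated data. The simulation gave all genes a common spread and held no outlying library, so it cannot decide why members were not called here.

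The members and lists were chosen with earlier results of these data known, so lists have counts and medians without tests. Every member may be named. Described in full are called members of a role or, with none called, the most abundant, and from each other list up to 4 called genes. Members with an unadjusted p under 0.05 also have fold changes. The labels do not say whether a replicate number is shared between groups. Residuals of libraries with the same number correlated at -0.162 to 0.031, with no other pairs set beside them. Whether a number marks mice handled together was not tested.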

Additional observations from a re-analysis of the deposited data

How the results depend on the processing

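By edgeR, no member was called in the 3 comparisons with other scalings, without the filter, with the replicate block or without mitochondrial genes. The genes called for MC against NC (1386) were 3754 with DESeq2, 3781 with the 2 groups alone, 306 with the replicate block, 2283 on log2(FPKM + 1), 5205 with quality weights, 2273 without MC 3 and LRWE 2, and 281 to 3318 with 1 library left out, the highest without LRWE 2. The members called were 5, 4, 0, 1 (Cdt1), 6, 1 (Tyms) and 0 to 3 (Mcm7, Cdt1 and Cdk4 without LRWE 2) in the same order, where the share of all genes was 17.2%, 18.2%, 1.41%, 14.4%, 23.9%, 10.0% and 1.22% to 14.4%. For LRWE against MC, 0 genes became 2178 with DESeq2, 2901 with quality weights, 1 without MC 3 and LRWE 2, and 0 to 2436 with 1 library left out, the highest without LRWE 1. Pcna was the 1 member called in each of the first 2 and without LRWE 1 (0 to 1). For LRWE against NC, 2179 genes became 4415 with DESeq2, 600 with the replicate block, 6142 with quality weights, 1089 without MC 3 and LRWE 2, and 459 to 2725 with 1 left out, the lowest without NC 2. Members called were 7 with DESeq2, 2 with the 2 groups alone (Mki67, Ccnd1; 11.7% of all genes), 2 of 38 tested on log2(FPKM + 1) and on log2(FPKM + 0.1) (Cdt1, Ccnd1; 2840 of 15814 genes and 17.1%), 1 on unfiltered FPKM (Cdt1; 6.61%), 9 with weights, and 0 to 2 with 1 left out (Pcna and Bub1b without LRWE 1, Mki67 without MC 2). Of all genes, 11.4% were called without LRWE 1 and 11.9% without MC 2. The median of the members for LRWE against MC was 0.29 without MC 3 and LRWE 2 and 0.28 without MC 3, with 34 of 44 values positive. The cause was not tested.

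Scaling by totals alone put the median of all genes at 0.14 (MC against NC), at -0.24 (LRWE against MC) and at -0.10 (LRWE against NC). On that scale the median of the members lay below that of all genes for MC against NC (-0.30) and for LRWE against NC (-0.40). It lay above that of all genes for LRWE against MC (-0.14). Signs turned for these members. For MC against NC, Cdkn1a was 0.056 by totals and 0.025 in the 3 FPKM fits (-0.35 to 0.17 with 1 library left out), Tpx2 was -0.11 with the replicate block and -0.74 without MC 3 and LRWE 2 (-0.73 to 0.35), and Ccna2 was -0.047 without those 2 (-0.037 to 0.702). For LRWE against MC, Foxm1 was -0.023 by RLE and with the 2 groups alone, -0.022 by DESeq2 and without mitochondrial genes, -0.131 by totals, -0.035 without the filter and -0.03 on unfiltered FPKM (-0.22 to 0.49), and Cdk4 was -0.009 by totals. Without MC 3 and LRWE 2, Mki67 was 0.24, Ccna2 0.22 and Tpx2 0.61. With 1 left out, Mki67 ran from -0.50 to 0.22, Ccna2 from -0.49 to 0.24, Plk1 from -0.085 to 0.61 and Tpx2 from -0.65 to 0.41. With weights Tpx2 was 0 and Foxm1 0.14 for LRWE against NC. The replicate block added no call among members. The members had 0 to 14304 counts per library, 16 of them under 1 FPKM, and the part of counting error in the missing calls was not tested.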

Other observations

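Across the 9 libraries the 42 members without the CDK inhibitors varied together only in part, which is given as a description because the points share library scaling, group and cell makeup. The median Pearson r over their 861 pairs of log2 CPM was 0.31, with a range from -0.80 to 0.95. Cenpf, Aurkb and Mki67 had the highest mean r with the other members, at 0.49, 0.48 and 0.47. Ccne2 and Cdc6 had the lowest, at -0.35 and -0.14, and Pcna was at 0.03. NC 2 was the lowest NC library in 31 of the 42 members, and NC had the highest group mean in 29.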
